A study of Mus musculus with 3 samples.

Results

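The miR-17/92 cluster consists of 6 miRNA hairpins, Mir17, Mir18, Mir19a, Mir20a, Mir19b-1 and Mir92-1, out of 1005 mouse hairpins that RefSeq lists. The hairpins were located on the plus strand of chromosome 14 of the deposited small RNA alignments by their sequence and spacing, and every read that started within 5 nt of a mature start was counted to its arm. The 3 libraries came from MIN6, an established mouse insulinoma line that secretes insulin and serves as a beta cell model. All were cultured in medium with 25 mM glucose, so the libraries form a single group and every comparison was made among miRNAs within the same library. Total RNA was extracted, and small RNA libraries made from it by adaptor ligation were sequenced. Whether different sequences were ligated and read equally well was not tested. Levels and ratios between miRNAs are therefore those of reads, also where their direction recurs in every library.

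In the positions of the files (build mm9 per the submitters' processing notes), the cluster spanned 836 bases, from 115442893 at the first base of Mir17 to 115443728 at the last base of Mir92-1. Between these ends lay Mir18 at 115443073-115443168, Mir19a at 115443222-115443303, Mir20a at 115443379-115443485 and Mir19b-1 at 115443527-115443613, separated by 35 to 96 bases. In the GENCODE annotation of the later build GRCm38, all 6 hairpins lie within exon 2 of Mir17hg, a long non-coding RNA named as their host gene.

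As background, a miRNA hairpin is cut out of the primary transcript by Drosha and trimmed by Dicer to a short duplex. One strand of that duplex, from the 5′ arm (5p) or the 3′ arm (3p), is usually retained by an Argonaute protein. Target recognition rests mainly on the seed, bases 2 to 8 from the 5′ end, so a 5′-shifted isomiR, which starts at another base, has another seed. The cluster is a target of MYC and is also known as oncomiR-1. Its members are known to limit the pro-apoptotic protein BIM, and the genome holds a pair of paralogous clusters, miR-106b/25 and miR-106a/miR-363.

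RefSeq (GRCm38.p6) lists 11 mature miRNAs for the 12 arms, all except the 5p arm of Mir19a. Those of the more abundant arm of each hairpin are shown with the seed in capitals, since the members are grouped by it.
miR-17-5p: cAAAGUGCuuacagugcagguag
miR-20a-5p: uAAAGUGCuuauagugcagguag
miR-18a-5p: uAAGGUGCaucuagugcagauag
miR-19a-3p: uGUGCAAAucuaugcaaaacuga
miR-19b-1-3p: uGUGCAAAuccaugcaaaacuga
miR-92a-1-3p: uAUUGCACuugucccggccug
These sequences fall into 4 seed families. miR-17-5p and miR-20a-5p share the seed AAAGUGC and differ by C1U and C12U, with positions counted from 1 at the 5′ end. miR-19a-3p and miR-19b-1-3p share GUGCAAA and differ by U11C alone. The seeds AAGGUGC of miR-18a-5p and AUUGCAC of miR-92a-1-3p are carried by no other member of the cluster. Of these 6 mature miRNAs, 5 begin with U and miR-17-5p begins with C.

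The mapped reads of replicates 1, 2 and 3 summed to 9269795, 10816006 and 10218743, and expression is given in RPM, the reads of an arm per 1000000 mapped reads of its library. At this depth, 3 reads correspond to 0.277 to 0.324 RPM, which is also the level that a count of 0 allows. miR-375, the endocrine islet miRNA used as a check on the cell type, was expressed at 345184, 368904 and 383021 RPM, and the hairpins Mir7-1 and Mir7-2 of the islet miRNA miR-7 at averages of 260.3 and 384 RPM. The 5p mature miRNAs of Mir7-1 and Mir7-2 are identical, so reads that matched both loci equally well were divided between them. The hairpins tried as markers of blood cells (miR-142, miR-223) and of muscle (miR-1) could not be placed on the alignments, and the markers of liver and mesenchymal cells were not analysed here.

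The 12 arms of the cluster together were expressed at 284, 287 and 290.1 RPM in replicates 1, 2 and 3, or 287 ± 3.08 RPM (mean ± SD, n = 3, as everywhere below). These sums came from 2632, 3109 and 2964 reads. Only 6.25, 1.18 and 2.00 further reads on the plus strand fell outside the arms but within 100 nt of the cluster, and no read was found on the minus strand.

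miR-92a-1-3p, the last member of the transcript, was by far the most abundant. It was read 2094, 2586 and 2383 times, or at 226, 239 and 233 RPM. Its reads were 81.0% ± 1.89 of all reads of the cluster, and the other 11 arms together reached 58.0, 48.4 and 56.9 RPM. Its 5′ start was exceeded by 210 to 215 other 5′ starts of the genome in each library, out of 14375 to 16237 starts with at least 10 reads.

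miR-17-5p, the name-giving member, followed at 17.7, 15.2 and 17.7 RPM. miR-20a-5p, which shares its seed, was expressed at 11.2, 8.55 and 11.3 RPM, so the ranges of these seed-sharing members did not overlap. By reads, miR-92a-1-3p was 13.8-fold more highly expressed than miR-17-5p and 22.6-fold more than miR-20a-5p, and the direction was the same in 3 of 3 libraries.

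The remaining members were rarer. miR-19b-1-3p, a member of the miR-19 family known for its part in the oncogenic activity of the cluster, was expressed at 6.63, 7.61 and 6.21 RPM. miR-18a-5p was expressed at 6.69 RPM in replicate 1, but only at 3.996 and 3.82 RPM in replicates 2 and 3. miR-19a-3p was the lowest of these, at 2.91, 3.24 and 4.599 RPM. miR-92a-1-3p exceeded these 3 members 34.2-fold, 49.8-fold and 66.2-fold.

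Members that follow each other in the order of levels were compared within each library. The ranges of miR-92a-1-3p, miR-17-5p, miR-20a-5p and miR-19b-1-3p did not overlap between neighbours, with log2 ratios of 3.79 ± 0.16, 0.71 ± 0.10 and 0.60 ± 0.37. miR-19b-1-3p against miR-18a-5p (log2 ratio 0.54 ± 0.49) and miR-18a-5p against miR-19a-3p (0.41 ± 0.74) had overlapping ranges, and the sign of each was opposite in 1 library. With 3 libraries, the exact two-sided sign-flip permutation test cannot give a p-value below 0.25, which the first 3 pairs reached (0.417 after Benjamini-Hochberg adjustment over the 5 pairs), while the last pairs gave 0.5. The place of miR-19b-1-3p in this order rests on the equal division of reads between its identical loci Mir19b-1 and Mir19b-2. The SD between libraries was 0.873 to 2.33 times the SD expected from counting alone in the 8 arms with at least 10 reads in every library, highest for miR-18a-5p. The study calls the samples biological replicates, but whether they were separate cultures is not stated, so this spread, and every p-value, may reflect technical variation only.

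**Figure D1:**
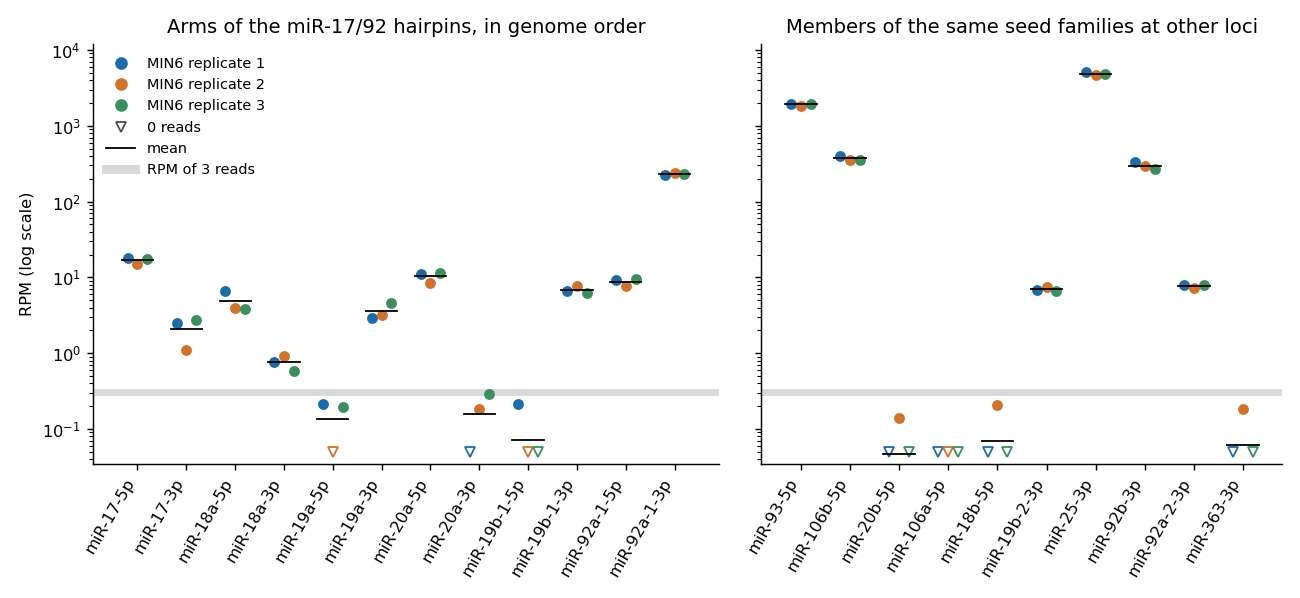
RPM (log scale) of each arm of the cluster in genome order (left) and of miRNAs with the same seeds at other loci (right). Points are the 3 MIN6 libraries, black lines their means, open triangles 0 reads, and the gray band the RPM of 3 reads; miR-92a-1-3p lies at 226 to 239 RPM, all other arms of the cluster at or below 17.7 RPM, and miR-25-3p at 4708 to 5082 RPM.

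The hairpins differed in which arm was read. Mir17, Mir18 and Mir20a gave mostly 5p reads, with 5p shares of 89.2% ± 3.54, 85.9% ± 4.37 and 98.5% ± 1.36. Mir19a, Mir19b-1 and Mir92-1 gave mostly 3p reads, with 5p shares of 3.66% ± 3.47, 1.05% ± 1.82 and 3.63% ± 0.48. Each hairpin had the same favored arm in 3 of 3 libraries. For Mir19b-1 this rests on 3p reads divided equally with Mir19b-2: with single-locus reads only, the log2 ratio of 5p to 3p was -0.28 in place of -6.33, and both arms were at 0.072 RPM or below. The exact sign-flip permutation p was 0.25 for every hairpin, before and after adjustment over the 6 hairpins, the smallest that 3 libraries allow.

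The less abundant arms, known as passenger or star strands, were not equally rare. The sequence of miR-92a-1-5p is shown, with its seed in capitals, because it was the most abundant of them.
miR-92a-1-5p: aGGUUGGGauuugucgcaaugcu
It was read 85, 82 and 97 times, or at 8.75 ± 1.02 RPM, which lies above the mean levels of miR-19b-1-3p, miR-18a-5p and miR-19a-3p. In the Mir92-1 hairpin the 5p share was 3.90% in replicate 1 (95% Wilson interval 3.17 to 4.798), 3.07% in replicate 2 (2.48 to 3.799) and 3.91% in replicate 3 (3.22 to 4.75). In every library this star strand exceeded both miR-18a-5p and miR-19a-3p, while its range overlapped that of miR-19b-1-3p.

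miR-17-3p was read 23, 12 and 28 times, and 5p to 3p differed on the log2 scale by 2.81, 3.72 and 2.67 in the Mir17 hairpin. miR-18a-3p was read 7, 10 and 6 times. The other star strands were at the limit of detection: miR-20a-3p was read 0, 2 and 3 times, the 5p arm of Mir19a 2, 0 and 2 times, and miR-19b-1-5p 2, 0 and 0 times. Intervals cover counting error only, because the reads carry no molecular identifiers.

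**Figure D2:**
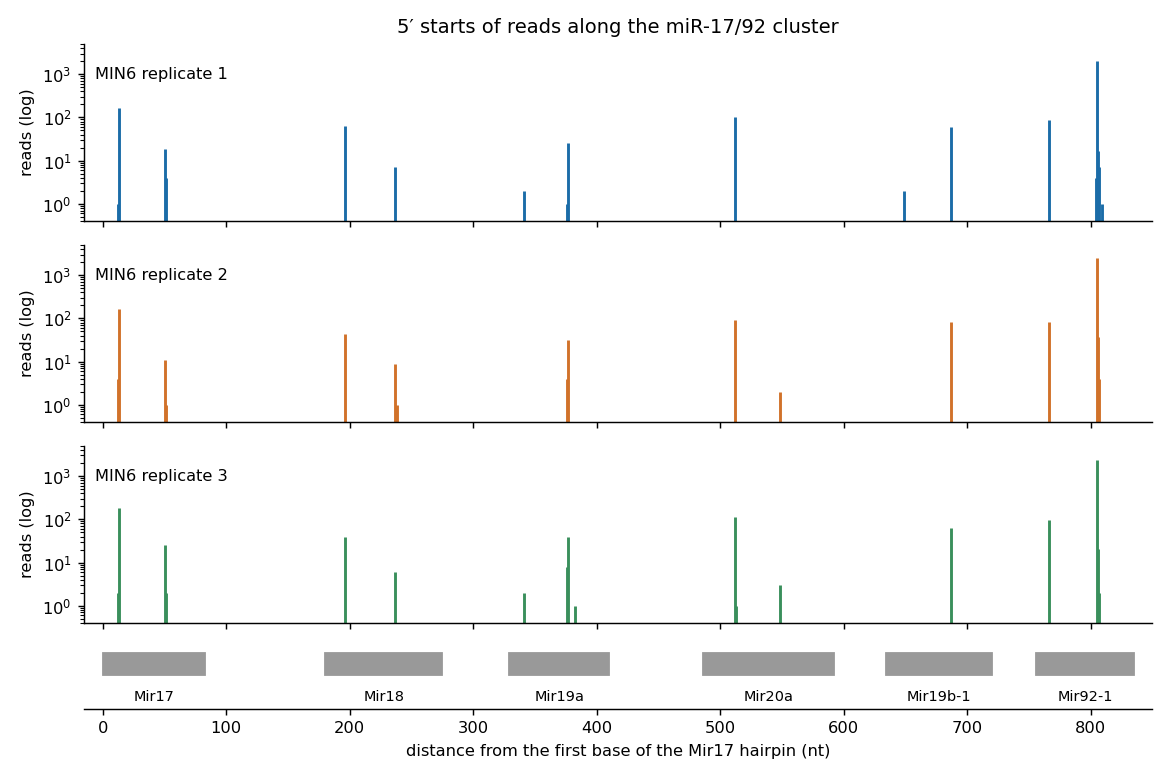
Reads (log scale) by 5′ start against the distance from the first base of the Mir17 hairpin, 1 panel per MIN6 library, with the 6 hairpins as gray boxes. Reads stack at 1 or 2 sharp starts per hairpin, the tallest in every library being the 3p start of Mir92-1 with 2065 to 2545 reads.

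The 5′ ends were sharp. The 5′-reference start, taken from RefSeq, held 98.6% ± 0.94 of miR-17-5p reads, all miR-18a-5p reads, 99.7% ± 0.50 of miR-20a-5p reads and 98.7% ± 0.32 of miR-92a-1-3p reads. In miR-92a-1-3p, the second start lay 1 base downstream and held 17, 36.5 and 20.5 reads, or 1.03% ± 0.33. In miR-17-5p, the second start lay 1 base upstream with 1, 4 and 2 reads.

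Lower shares were found in miR-19a-3p, where 88.6% ± 7.72 of reads began at the reference start, and in the star strand miR-17-3p, with 89.0% ± 5.60. A 5′-shifted isomiR of miR-19a-3p starting 1 base upstream was read 1, 4 and 8 times, or 3.70%, 11.4% and 17.0% of the arm. The 95% Wilson intervals of these shares ran from 0.657 to 18.3, from 4.54 to 26.0 and from 8.89 to 30.1, so they overlapped and the depth does not separate the libraries. Its sequence is shown because the shift gives it the seed UGUGCAA in place of GUGCAAA.
miR-19a-3p, 1 base upstream: uUGUGCAAaucuaugcaaaacuga
The same shift was not seen in miR-19b-1-3p beyond single reads, since the reference start held 61.5, 82.0 and 63.5 of its 61.5, 82.3 and 63.5 reads. The second start of miR-17-3p lay 1 base downstream, with 4, 1 and 2 reads, or 17.4%, 8.33% and 7.14% of the arm.

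The 3′ ends were more variable than the 5′ ends. miR-17-5p was read at 23 nt (53.0% ± 0.62) and at 24 nt (43.4% ± 0.64). miR-20a-5p, which ends in the same bases, was also read mostly at 23 nt (69.0% ± 3.97) and less at 24 nt (27.7% ± 2.29). Thus the 24 nt form took a larger share of miR-17-5p than of miR-20a-5p, in 3 of 3 libraries.

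miR-18a-5p was spread over 21 to 24 nt, with 48.7% ± 4.95 of reads at 23 nt and 23.2% ± 2.50 at 24 nt. miR-19b-1-3p was read at 23 nt (61.3% ± 5.40) and at 22 nt (33.0% ± 3.51), and miR-19a-3p at 23 nt (64.9% ± 14.8) and at 22 nt (16.5% ± 5.11). By mean share, 22 nt was thus the second length of both miR-19 members, whereas 24 nt was the second length of miR-17-5p, miR-20a-5p and miR-18a-5p. The star strand miR-92a-1-5p was the most uniform of the well-read arms, with 94.0% ± 2.36 of reads at 23 nt.

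miR-92a-1-3p had another pattern. Its main form of 22 nt held 67.8% ± 2.36 of reads and is 1 base longer than the RefSeq mature miRNA of 21 nt, which itself held 2.14% ± 0.15. The next most frequent length was 24 nt (16.3% ± 1.42), ahead of 23 nt (6.45% ± 1.14) and 25 nt (5.93% ± 0.61). The reads of 24 nt outnumbered those of 23 nt in every library, with 359.5 against 162.5, 439 against 148 and 348.5 against 139.5.

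**Figure D3:**
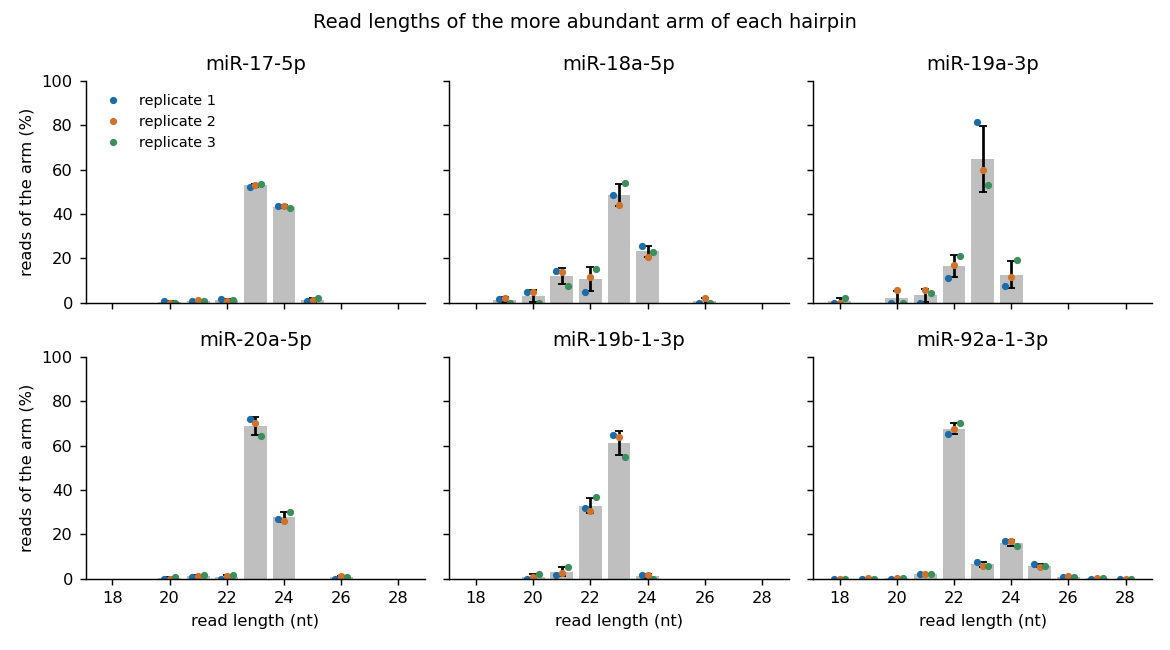
Share of reads (%) by read length (nt) for the more abundant arm of each hairpin. Bars are means over the 3 MIN6 libraries, error bars the SD and points the libraries; miR-17-5p has bars at 23 and 24 nt, and miR-92a-1-3p has its highest bar at 22 nt (67.8%) and its second at 24 nt (16.3%).

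Many of the longer forms of miR-92a-1-3p did not match the hairpin. Because miR-92a is encoded both by Mir92-1 and by Mir92-2 of the miR-106a/miR-363 cluster, the bases that follow the mature miRNA decide which locus a read can match. They are shown in capitals after the mature miRNA, beside the same stretch of Mir25 of the miR-106b/25 cluster and of Mir92b, whose mature miRNAs share the seed AUUGCAC.
Mir92-1: uauugcacuugucccggccugUUGA
Mir92-2: uauugcacuugucccggccugAGGA
Mir25: cauugcacuugucucggucugaCAG
Mir92b: uauugcacucgucccggccuccGGC
The form of 22 nt ending in U matches only Mir92-1 without a mismatch, and it was read 1288, 1642 and 1599 times. The form of 22 nt ending in A matches only Mir92-2 without a mismatch and was read 13, 10 and 14 times. The form of 21 nt matches both loci and was divided equally between them, with 29, 36 and 33 reads each. Only 2.73% ± 0.17 of miR-92a-1-3p reads were shared with another locus, whereas 99.1% ± 0.85 of miR-19b-1-3p reads were shared with Mir19b-2, whose mature miRNA is identical. An A or U that was added to 1 of these loci can look like a matching base of the other, and such reads cannot be told apart.

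A 3′ end was called mismatching where an unbroken run of mismatches reached the last base of the read, which is how non-templated additions appear in such alignments. Of the miR-92a-1-3p reads, 26.0%, 24.2% and 21.4% had such an end in replicates 1, 2 and 3. The main arms of the other hairpins had fewer, with 3.10% ± 1.68 for miR-17-5p, 2.31% ± 2.18 for miR-20a-5p, 5.49% ± 2.82 for miR-18a-5p, 7.03% ± 3.61 for miR-19a-3p and 9.58% ± 2.29 for miR-19b-1-3p. These 5 means rest on 7 to 19.5 reads in total, compared with 1679 for miR-92a-1-3p. Of the star strands, miR-17-3p had 9, 3 and 7 reads with such an end, or 29.7% ± 8.16 of its reads, and miR-92a-1-5p had 0.39% ± 0.68.

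The mismatching ends of miR-92a-1-3p started with A in 89.7%, 84.4% and 83.2% of cases. The most frequent were AU, on 7.45% ± 0.90 of reads at the reference start, AA on 5.91% ± 1.02, A on 3.05% ± 0.84, U on 2.22% ± 0.46, AAU on 1.41% ± 0.21 and AC on 1.26% ± 0.13. Of the 6076 reads whose match to the hairpin ended at base 22, 1313 carried further bases that did not match, and 1308 of these additions started with A. An addition whose last base happens to match the hairpin is not in this count, nor in the list of most frequent ends. The last matching base was base 25, an A, in 169 reads, or 2.43% ± 0.28 of reads at the reference start. At base 23, A was read in 1523.5 reads, whatever bases came after. The forms are written out with the mismatching bases in capitals, since they account for most reads of 24 nt.
22 nt, no addition: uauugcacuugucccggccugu
23 nt, A: uauugcacuugucccggccuguA
24 nt, AU: uauugcacuugucccggccuguAU
24 nt, AA: uauugcacuugucccggccuguAA
25 nt, AAU: uauugcacuugucccggccuguAAU
The read with AU was the second most abundant sequence of the arm, with 146, 169 and 127 reads, and the read with AA the third, with 124, 161 and 108 reads. Both outnumbered the read with a single A, which was found 65, 43 and 54 times.

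The 3′ ends of miRNAs with the same seed at other loci differed in their first added base. In miR-25-3p, 11.6% ± 0.34 of reads had a mismatching 3′ end, and 22.5% ± 0.07 of these ends started with A, against 70.1% ± 0.69 with U. In miR-92b-3p the share of mismatching ends was 24.5% ± 1.32, close to that of miR-92a-1-3p, but 35.4% ± 3.04 of its ends started with A and 61.4% ± 2.75 with U. The share starting with A was higher in miR-92a-1-3p by 63.2 ± 3.50 percentage points than in miR-25-3p and by 50.3 ± 5.21 than in miR-92b-3p, in 3 of 3 libraries each (exact sign-flip permutation p = 0.25, the smallest possible, and 0.3 after adjustment over 6 such tests). The shares of mismatching ends of miR-92a-1-3p and miR-92b-3p did not differ beyond their spread, with a difference of -0.62 ± 3.16 percentage points. With any mismatch within the last 3 bases counted, these shares were 27.4% ± 2.45 and 25.0% ± 1.41.

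Since base 23 of the Mir92-1 sequence is U, a U added after base 22 matches there and is not counted as mismatching. The base read at position 23 was therefore compared irrespective of the hairpin. Among reads of at least 23 nt, it was A in 74.7%, 74.7% and 71.1% of miR-92a-1-3p reads, and U in 25.2%, 25.0% and 28.5%. In miR-25-3p it was A in 27.1% ± 0.75 and U in 67.4% ± 0.36, and in miR-92b-3p A in 33.2% ± 4.39 and U in 63.6% ± 4.55. The difference in A was 46.4 ± 2.73 percentage points against miR-25-3p and 40.2 ± 6.42 against miR-92b-3p, again in 3 of 3 libraries. Reads reaching base 23 were 29.8% ± 2.40 of miR-92a-1-3p, 9.53% ± 0.23 of miR-25-3p and 12.2% ± 0.41 of miR-92b-3p.

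**Figure D4:**
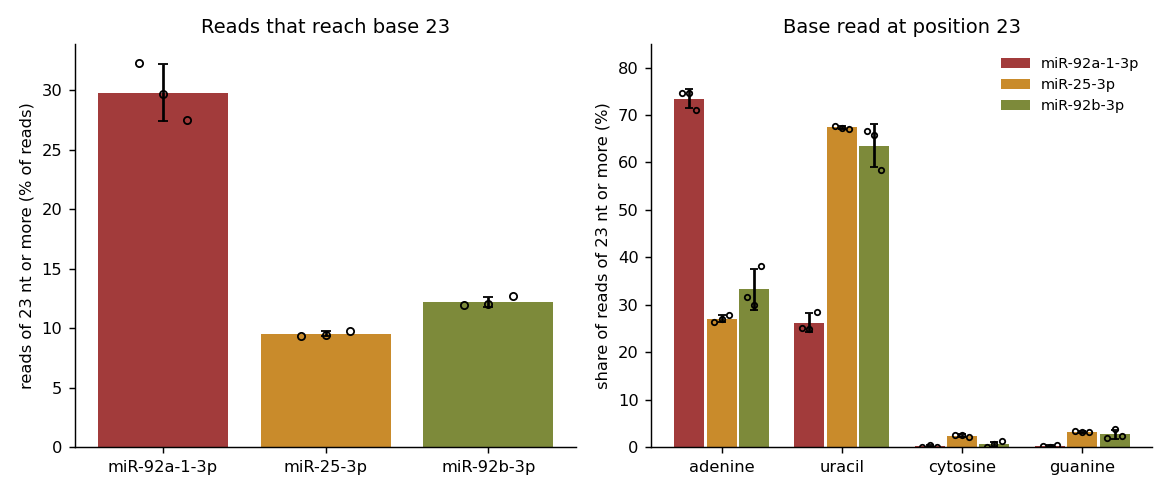
Left, reads of at least 23 nt as a share (%) of reads at the reference start of 3 miRNAs with the seed of miR-92a; right, the base at position 23 among those reads (%), whatever base the hairpin has there. Bars are means over the 3 MIN6 libraries, error bars the SD and open points the libraries; adenine was read in 73.5% for miR-92a-1-3p, 27.1% for miR-25-3p and 33.2% for miR-92b-3p.

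The reads also held mismatches far from the 3′ end, and in the main arms those with C in place of A fell on few positions. The star strand miR-17-3p had mismatches in positions 1 to 18 in 7, 7 and 6 reads, or 36.7% ± 19.2 of its reads. Their positions were not analysed here. In miR-17-5p, C was read in place of A at position 11 (A11C) in 10, 22 and 13 reads, or 6.12%, 13.7% and 7.28% of reads at the reference start. The 95% Wilson intervals were 3.36 to 10.9, 9.23 to 19.9 and 4.31 to 12.1, which overlap. In miR-20a-5p, A11C was found in 3, 11 and 9 reads, or 7.55% ± 4.51. The paralog miR-106b-5p, which also has A at position 11, carried A11C in 9.35%, 8.26% and 8.45% of its reads, 970 reads in all. miR-93-5p has U at this position.

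The miR-19 members carried the same kind of mismatch at positions 6 and 12. In miR-19b-1-3p, A12C was found in 19.5%, 14.6% and 21.3% of reads and A6C in 5.69%, 9.15% and 9.45%. In miR-19a-3p, A12C reached 12.7% ± 2.88 and A6C 12.7% ± 2.99, from 12 reads each. Position 6 lies within the seed. The sequences are shown with the substituted base in capitals.
miR-17-5p, A11C: caaagugcuuCcagugcagguag
miR-20a-5p, A11C: uaaagugcuuCuagugcagguag
miR-106b-5p, A11C: uaaagugcugCcagugcagau
miR-19a-3p, A6C: ugugcCaaucuaugcaaaacuga
miR-19a-3p, A12C: ugugcaaaucuCugcaaaacuga
miR-19b-1-3p, A6C: ugugcCaauccaugcaaaacuga
miR-19b-1-3p, A12C: ugugcaaauccCugcaaaacuga

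Over the 6 main arms, positions 1 to 18 hold 33 A bases. As a mean over the libraries, C was read in place of A in more than 5% of reads at 6 of them, those named above, and in less than 2% at the other 27. In single libraries A11C of miR-20a-5p was as low as 2.88%, and single reads at other positions of miR-19a-3p reached 3.85%. A-to-C changes made up 82.9% of the mismatches in these positions of miR-17-5p, 88.5% in miR-20a-5p, 95.2% in miR-19b-1-3p and all in miR-19a-3p. They were 17.97% of those in miR-92a-1-3p, where A7C was found in 0.74% ± 0.13 of reads, and the A7C shares of miR-25-3p (0.91% ± 0.02) and miR-92b-3p (0.74% ± 0.15) lay close to it. The most frequent mismatch in these positions of miR-92a-1-3p was C13A, in 0.89% ± 0.19 of reads. C13A was also found in miR-93-5p (0.93% ± 0.49), miR-25-3p (0.57% ± 0.29) and miR-92b-3p (0.80% ± 0.19). No adenine in positions 1 to 18 of miR-18a-5p reached a mean of 2%. Beyond position 18, a miR-18a-5p read of 23 nt with C in place of A was found 6, 0 and 1 times. In the star strand miR-92a-1-5p, A9C was found in 8, 3 and 0 reads. The source of these mismatches was not tested.

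**Figure D5:**
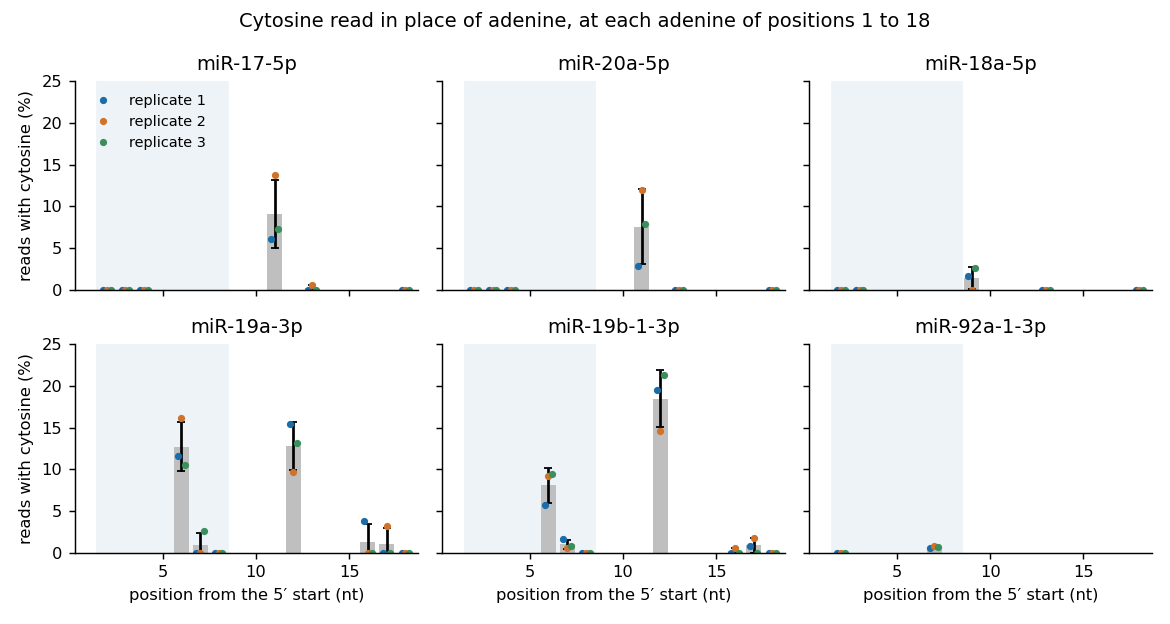
Reads with cytosine in place of adenine (% of reads at the reference start) at each adenine of positions 1 to 18 from the 5′ start, for the more abundant arm of each hairpin. Bars are means over the 3 MIN6 libraries, error bars the SD, points the libraries and the shaded area the seed; the bars over 5% stand at position 11 of miR-17-5p and miR-20a-5p and at positions 6 and 12 of the miR-19 members.

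A further mismatch of miR-92a-1-3p, U10C, is a base by which miR-92b-3p differs from it. The first 18 bases of 18.8, 14 and 15.8 reads counted to miR-92a-1-3p are those of miR-92b-3p. No other arm of the cluster held reads with a mismatch whose first 18 bases were those of another mature miRNA of RefSeq, which includes the reads with A11C, A6C and A12C.

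Finally, the members were set beside the miRNAs of other loci with the same seeds. Their RefSeq sequences are shown with the seed in capitals, because outside it they differ from the members at few positions.
miR-93-5p: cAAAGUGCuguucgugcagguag
miR-106b-5p: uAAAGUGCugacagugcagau
miR-25-3p: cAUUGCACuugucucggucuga
miR-92b-3p: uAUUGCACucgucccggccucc
From miR-17-5p to miR-93-5p the changes are U10G, A11U, C12U and A13C, from miR-20a-5p to miR-106b-5p U10G, U12C and G20A, and from miR-92a-1-3p to miR-92b-3p U10C and G21C.

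By reads, the paralogs of the miR-106b/25 cluster were far more abundant. miR-93-5p was expressed at 1949.8, 1837 and 1953 RPM, 114-fold above miR-17-5p (log2 ratio 6.83 ± 0.08) and 186-fold above miR-20a-5p. miR-106b-5p was expressed at 394, 358 and 358 RPM, 21.97-fold above miR-17-5p (4.46 ± 0.11) and 36-fold above miR-20a-5p. miR-25-3p was expressed at 5082, 4708 and 4792 RPM, 20.9-fold above miR-92a-1-3p (4.38 ± 0.10). In contrast, miR-92b-3p was expressed at 334, 291 and 272 RPM, only 1.28-fold above miR-92a-1-3p (0.36 ± 0.18), although the ranges did not overlap. Each of these 6 differences had the same direction in 3 of 3 libraries, with an exact sign-flip permutation p of 0.25, before and after adjustment, which is the smallest possible.

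Each seed family was then summed over the loci that could be placed, to give the share that came from the cluster. Of the RefSeq miRNAs with the seed, 6 of 7 were placed for AAAGUGC and 5 of 7 for AUUGCAC. The family with the seed AAAGUGC was expressed at 2311 ± 80.9 RPM, and miR-17-5p and miR-20a-5p provided 1.22%, 1.07% and 1.24% of it. The family with the seed AUUGCAC was expressed at 5400 ± 218 RPM, of which miR-92a-1-3p provided 3.999%, 4.56% and 4.395%. miR-25-3p provided 90.0% ± 0.29 of this family. Hence the cluster provided a small minority of the reads in both seed families that it shares with miR-106b/25.

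Of the other families, that of miR-18 came mostly from the cluster, while for that of miR-19 the share cannot be told. miR-18a-5p provided 98.4% ± 2.82 of reads with the seed AAGGUGC, its paralog miR-18b-5p having 0, 2.22 and 0 reads. The seed GUGCAAA was expressed at 17.4 ± 0.99 RPM, and 59.7% ± 1.83 was counted to the cluster, a share set by the equal division of miR-19b reads between Mir19b-1 and Mir19b-2. Without that division, only the 20.5% ± 4.95 from miR-19a-3p is certain to come from the cluster. Summed over both loci, miR-19b-3p was expressed at 13.5, 15.1 and 12.9 RPM, above miR-20a-5p in every library. Seed by seed, the miR-106b/25 cluster, at 7526 ± 288 RPM, thus held most reads of the families it shares with miR-17/92, while the families of miR-18 and miR-19 have no member in it. The miR-106a/miR-363 cluster was counted at 14.9 ± 0.41 RPM, nearly all of it at its copies of miR-19b and miR-92a. Of its members with a sequence of their own, miR-106a-5p had no read in any library, which allows up to 3 reads in each, and miR-20b-5p, miR-18b-5p and miR-363-3p had at most 2.22 reads, in replicate 2 only.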

How the data were processed

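MIN6 small RNA libraries were prepared by the authors with the TruSeq small RNA kit, and reads of 14 to 41 nt were trimmed with cutAdapt and aligned with Bowtie and SHRiMP. The authors deposited, per library, each alignment with its mismatches and its number of reads. The expected counts that the authors deposited were made by splitting a read equally over all loci it matched, so they need not be whole, and they are not normalized. Mismatched reads were sought by the authors only near exact matches, so a miRNA without exact reads is not seen. Alignments marked as exact end 1 base early, which was corrected. Hairpins were placed by requiring that every mismatch letter differ from the hairpin base (848 letters of the cluster, 0 contradicted, 4796 shifts tried, next best shift 157 letters). Sequences are from RefSeq (GRCm38.p6). The miR-106a/miR-363 placement rests on fewer letters (149 against 80). miR-32, miR-367 and miR-6383, which share seeds with the cluster, could not be placed. RPM used all mapped reads, or all mapped reads without a mismatch where only those were counted. Log2 ratios between arms of a hairpin, and those between members under the alternatives, used a pseudocount of 0.5 reads. Python 3.11.15, numpy 2.4.6, pandas 2.3.3 and matplotlib 3.10.9 were used, and the counting was tested on simulated data. The libraries were not duplicates, since the chi-square of their starts with at least 50 reads was at least 16.7 per degree of freedom. All hairpins of the cluster and both arms are named, with seed-sharing paralogs beside them. The members and lists were chosen with earlier results of these data known. Alternatives were other denominators, reads without a mismatch or of a single locus, reads of 16 to 27 nt, other starts, another call of 3′ ends and leaving out each replicate.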

Additional observations from a re-analysis of the deposited data

How the results depend on the processing

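No paired analysis was possible because the 3 samples share 1 condition, so that no replicate number links samples of different groups (ratios between miRNAs were taken within each library). The summed level of the cluster was 453 RPM with miR-375 reads left out of the denominator and 274 RPM with single-locus reads only, against 287 RPM. With reads without a mismatch only it was 277 RPM, but such reads were then also the denominator. They were 6920618, 8073359 and 7625969 in replicates 1, 2 and 3, so this level does not give the share of cluster reads with a mismatch. The share of miR-92a-1-3p in the cluster was 78.5% with reads without a mismatch only, against 81.0%. Mismatching 3′ ends were 20.3% of the cluster's reads, 5.69% when only a single mismatch at the last base was counted, and 23.3% when any mismatch within the last 3 bases was counted, an alternative chosen after seeing the data. With single-locus reads only, the cluster held 93.6% of the seed GUGCAAA, against 59.7%. miR-19b-1-3p then fell below miR-18a-5p (log2 ratio -5.51, against 0.54, both with the pseudocount), because nearly all its reads are shared with Mir19b-2. Levels of single arms moved by more than 1 SD in 15 further cases, all under the other denominator, reads without a mismatch or single-locus reads. The number of hairpins with mostly 5p reads stayed at 3 under every alternative run, but with single-locus reads only the log2 ratio of 5p to 3p of Mir19b-1 moved from -6.33 to -0.28. Leaving out each replicate kept the summed level at 286 to 289 RPM and the share of mismatching ends at 19.5% to 21.3%. Depth limits the star strands of Mir19a, Mir20a and Mir19b-1, which had 0 reads in at least 1 library.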
